A study of Rattus norvegicus with 24 samples.

Results

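The genes described here are the 6 that set the phosphate and pyrophosphate supply of mineralizing cartilage: Alpl, Phospho1, Slc20a1, Slc20a2, Ankh and Enpp1. They were chosen by name, and every probe set that the platform annotation assigns to one of them was taken. That gave 8 of the 31099 probe sets on the array. Of these, 6 probe sets, 1 per gene, were bright enough to be tested, among 19213 tested in all. The second probe sets of Ankh and Slc20a2 were too dim and are given as values only.

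RNA came from the proximal tibia of 1-week-old rats that were neither castrated nor treated. Frozen sections of 60 µm were cut apart by hand under a microscope into epiphyseal cartilage (n = 4 arrays), resting zone, proliferative zone, proliferative-hypertrophic transition zone and hypertrophic zone (n = 5 arrays each). The labels assign the 24 arrays to 5 numbered animals, and animal 3 has no epiphyseal array here. The labels call the resting, proliferative and hypertrophic rats male and 7 days old, and those of the epiphyseal and transition arrays give no sex.

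Cartilage mineralizes when phosphate and calcium crystallize as hydroxyapatite in and around matrix vesicles that hypertrophic chondrocytes shed. Inorganic pyrophosphate, a pair of joined phosphates, coats growing crystals and blocks them, so the local ratio of phosphate to pyrophosphate decides where mineral forms. Alpl encodes tissue-nonspecific alkaline phosphatase, which splits pyrophosphate into phosphate at the cell and vesicle surface. Phospho1 encodes a phosphatase that releases phosphate from phosphocholine and phosphoethanolamine inside vesicles. Slc20a1 (Pit-1) and Slc20a2 (Pit-2) import phosphate together with sodium. On the opposing side, Enpp1 makes pyrophosphate from ATP outside the cell and Ankh is needed for its release from the cell.

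The stretches before the start sites of Alpl and Phospho1 are shown because, of all pairs among the 6 genes, theirs was the closest in pattern across the arrays. RefSeq sequence of assembly GRCr8 was at hand for 3 of the 6 genes, Ankh included. Each line holds the 250 bases before the annotated start, at chr5:155289786-155290035 on the minus strand for Alpl and at chr10:81258560-81258809 on the plus strand for Phospho1. Capitals mark matches to 5 short motifs searched on both strands: AP-1 (TGANTCA), the CCAAT box (CCAAT), the GC box (GGGCGG), Runx (TGTGGT) and a partial cAMP response site (TGACGT).
Alpl: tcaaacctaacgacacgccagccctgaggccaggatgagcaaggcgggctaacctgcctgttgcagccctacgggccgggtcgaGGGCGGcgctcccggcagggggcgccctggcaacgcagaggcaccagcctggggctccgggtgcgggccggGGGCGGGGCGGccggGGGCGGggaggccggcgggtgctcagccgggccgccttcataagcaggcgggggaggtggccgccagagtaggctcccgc
Phospho1: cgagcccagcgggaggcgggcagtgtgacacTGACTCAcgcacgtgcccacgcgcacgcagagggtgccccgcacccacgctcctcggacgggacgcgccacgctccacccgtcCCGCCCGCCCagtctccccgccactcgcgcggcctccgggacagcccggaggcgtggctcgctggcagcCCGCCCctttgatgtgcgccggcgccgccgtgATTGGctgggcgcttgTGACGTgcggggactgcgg
Both stretches were rich in G and C, at 76.0% each against a median of 51.2% over all promoters. Alpl held 4 GC boxes, which began 166, 95, 90 and 80 bases before the start, and the matches at 95 and 90 overlapped. Phospho1 held 3 GC boxes on the other strand, at 136, 132 and 67 bases, the first pair overlapping. It also held 1 AP-1 match at 219 bases, 1 CCAAT box on the other strand at 35 bases and 1 partial cAMP response site at 19 bases. The Ankh window, at 79.2% G and C, held 2 overlapping GC boxes. Of 33469 rat promoter windows of the same length, 30.5% held a GC box, 34.0% a CCAAT box, 14.5% a Runx match, 6.9% a partial cAMP response site and 6.3% an AP-1 match. These are letter matches and not measured binding.

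Signals are MAS5 intensities on a linear scale. A probe set's level can be compared between zones but not with that of another probe set. Changes were fitted with limma on log2(signal + 16) blocked on the animal, and a gene was called when its Benjamini-Hochberg adjusted p over all 19213 probe sets was below 0.05 and its fold at least 2. A fold on this scale understates changes of dim genes. The block removes level differences between animals, so the p-values rest on how far differences between zones vary among these animals. That spread is pooled over the zones, and limma draws it toward that of other probe sets. The number of arrays limits the precision, and in dissected tissue fewer cells of a type and less RNA per cell cannot be told apart. The comparisons share zones, so their values are not independent of each other.

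Median signals per array spanned 135.3 to 244.6. The log2 ratio of 3' to 5' signal for Gapdh, a measure of RNA quality, was lowest in transition arrays, at 2.57 ± 0.33 (SD, n = 5), and highest in hypertrophic arrays, at 2.96 ± 0.54 (SD, n = 5). The same ratio for actin had another order, with means of 4.03 in epiphyseal and resting, 4.31 in hypertrophic, 4.46 in transition and 4.47 in proliferative arrays. Array labels come in 2 wordings, and they do not state that a number means the same animal in both. Zone and wording cannot be told apart for the transition against the proliferative zone, the hypertrophic against the transition zone and the resting zone against epiphyseal cartilage. The other 4 comparisons lie within 1 wording. Scaling all arrays to one median moved the median change of all probe sets from 0.02 to -0.24 (log2) for the hypertrophic against the transition zone and from -0.07 to 0.22 for the transition zone against epiphyseal cartilage. The share of called probe sets that were higher moved with it, from 73.2% to 43.1% and from 31.4% to 62.6%. For the transition against the proliferative zone that share moved from 36.9% to 53.6%, and for the proliferative against the resting zone from 32.3% to 42.6%.

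The zones carried their own markers in part. The summed signal of Col10a1, Ihh and Mmp13, markers of hypertrophic chondrocytes, ranged from 1908.1 to 6079.3 in proliferative, from 32153.9 to 65869.7 in transition and from 54182.9 to 144013.7 in hypertrophic arrays. It was also high in epiphyseal cartilage, from 4975.0 to 42431.1. The resting array of animal 1 gave 19792.2 against 1507.9 to 4077.4 in the other resting arrays. Nearly all of that sum was Mmp13, whose highest resting signal was 19420.3. Epiphyseal means were 16610 for Mmp13, 8505 for Col10a1 and 295.6 for Ihh. Mmp13 was called lower, and Col10a1 and Ihh higher, in the proliferative than in the resting zone. The same held for the transition zone against epiphyseal cartilage. Of the resting zone markers, Sfrp5 was called higher in the resting zone than in epiphyseal cartilage, while Grem1 had the higher mean in epiphyseal cartilage (3074 against 1787). Both were called lower in the proliferative than in the resting zone. Of the 4 markers of dividing cells, 0 were called by limma in the proliferative against the resting zone (median log2 change 0.83), where 6.09% of all probe sets were called. There 3 had an unadjusted p below 0.05 and 1 an adjusted one. All 4 were called lower in the transition than in the proliferative zone, as were 5.31% of all probe sets. Markers of other cells were also higher in the hypertrophic than in the transition zone. Against the transition zone, 3 of 3 tested osteoblast markers, 6 of 7 osteoclast and macrophage markers, 4 of 4 erythroid, 5 of 5 leukocyte, 3 of 4 endothelial and 3 of 6 skeletal muscle markers were called higher, and none of these was called lower. The lists held 5, 10, 8, 7, 7 and 8 markers in that order, and those left out had no tested probe set. Of all probe sets 6.78% were called higher at this step. Of the 4 markers of dividing cells, 2 were called higher there too, Mki67 and Ccnb1. The mean skeletal muscle sum was 54463.8 in resting and 49573.5 in hypertrophic arrays. Against the resting zone, Tnni2 and Tnnt3 were called lower in the hypertrophic zone and Myh1 higher. The part of these other cells in the hypertrophic changes given below was not tested. The hypertrophic array of animal 4 stood apart. Its summed osteoclast and macrophage signal was 85438.0 against 9758.6 to 14303.8 in the other 4, and its osteoblast sum was 133709.3 against 49511.3 to 73215.2. Bglap, which encodes osteocalcin, lay below the array median in the other 4. The epiphyseal arrays of animals 1 and 2 also held more osteoclast and macrophage signal (65855.0 and 31466.2) than those of animals 4 and 5 (4287.5 and 3921.7). The resting array of animal 1 held 26276.9 against 2372.0 to 6719.5 in the other resting arrays.

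Across the 5 zones the phosphate-releasing pair changed most, the importer Slc20a1 changed late, and Slc20a2 and Enpp1 had no called change. The only call for Ankh, lower in the transition zone than in epiphyseal cartilage, held in 13 of 19 alternative settings. All 6 tested probe sets passed limma's moderated F test across zones, as did 55.6% of all probe sets. Alpl ranked 39th by p (adjusted p = 5.66e-14) and Phospho1 88th (1.01e-12), followed by Slc20a1 (3.05e-07), Enpp1 (0.00416), Slc20a2 (0.0196) and Ankh (0.0391). The last pair were not stable: without animal 2 the adjusted p was 0.254 for Ankh and 0.148 for Slc20a2, and without animal 3 it was 0.0772 and 0.0805. Ankh also missed the threshold without animal 1 (0.135) and with epiphyseal arrays 1 and 2 left out (0.266), and Slc20a2 without animal 4 (0.0779). For Ankh it was missed as well after scaling to one median (0.119), after quantile normalization (0.0744), with no trend (0.0667) and with no filter (0.0537).

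**Figure D1:**
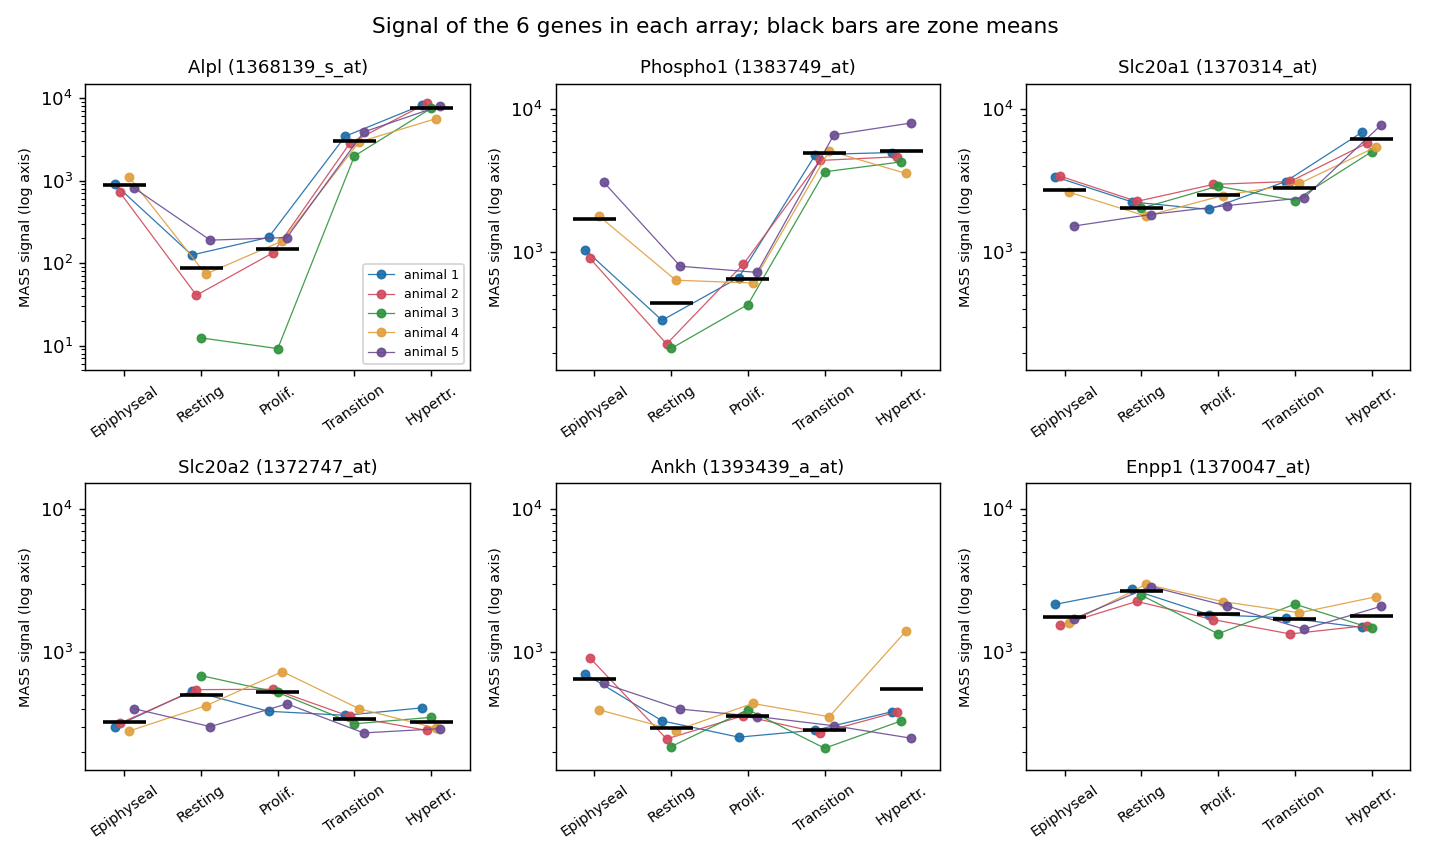
MAS5 signal on a log axis for the tested probe set of each gene, by zone (x axis), with 1 point per array, lines joining the arrays of an animal and black bars at the zone means. Alpl runs from a mean of 88.4 in the resting zone to 7634 in the hypertrophic zone, Phospho1 levels off from the transition zone on, and Slc20a1 rises only at the hypertrophic step.

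Alpl, the alkaline phosphatase, was dim in resting and proliferative cartilage and rose steeply in the transition zone. Its signals in the resting zone were 125.4, 40.8, 12.4, 73.5 and 189.9 in animals 1 to 5, and in the proliferative zone 205.2, 134.0, 9.2, 185.8 and 204.4. These lay below the array median in every resting array and in 3 of 5 proliferative ones. Transition arrays gave 3455.5, 2843.9, 1991.6, 2943.2 and 3886.3, and hypertrophic arrays 8258.9, 8637.8, 7534.1, 5633.7 and 8104.8. The 4 epiphyseal arrays lay in between, at 898.8, 725.5, 1110.9 and 822.6 in animals 1, 2, 4 and 5.

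The order of Alpl was therefore hypertrophic, transition, epiphyseal, proliferative and resting, and only the last pair overlapped. From the proliferative to the transition zone it rose by 4.51 ± 0.33 (SE, log2, adjusted p = 8.99e-10 in limma), in 5 of 5 animals. From the transition to the hypertrophic zone it rose by a further 1.35 ± 0.33 (adjusted p = 0.00423), again in 5 of 5. The same rise within 1 label wording, hypertrophic against proliferative, was 5.86 ± 0.33 (adjusted p = 1.19e-12). The resting zone was lower than epiphyseal cartilage (log2 change -3.13, 95% interval -3.86 to -2.40, adjusted p = 5.34e-06). At that step the hypertrophic marker Col10a1 was also called lower, with means of 8505 in epiphyseal and 822.7 in resting arrays. Of all probe sets 0.859% were called lower, and of the hypertrophic chondrocyte markers 1 of 3 (median -1.58). The part of those cells in the lower Alpl and Phospho1 of the resting zone was not tested. The transition zone stood 2.01 ± 0.36 above epiphyseal cartilage (adjusted p = 0.000136). Resting and proliferative zones differed by 0.63 (interval -0.05 to 1.31, adjusted p = 0.226). Animal 3 was the lowest in both. The rise into the transition zone ranged from 3.97 to 4.86 over the 19 alternative settings and was called in each.

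Phospho1, the vesicle phosphatase, rose at the same place as Alpl and then stopped. Its resting signals were 335.6, 229.4, 213.5, 638.6 and 798.8, and its proliferative signals 665.8, 826.2, 432.4, 610.6 and 724.3, which overlap. Its transition signals of 4799.3, 4370.7, 3642.0, 5095.1 and 6593.2 all lay above every proliferative one. The hypertrophic signals, 4962.5, 4633.4, 4270.3, 3548.2 and 7960.2, covered the same range as the transition ones. Epiphyseal cartilage gave 1037.9 and 908.4 in animals 1 and 2, and 1788.1 and 3083.2 in animals 4 and 5. The lower pair are the arrays with high osteoclast and macrophage signal, and the part of those cells in this difference was not tested.

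Phospho1 rose by 2.88 ± 0.23 (log2) from the proliferative to the transition zone (adjusted p = 2.37e-09 in limma, 5 of 5 animals). From the transition to the hypertrophic zone it differed by 0.02 (95% interval -0.45 to 0.49, adjusted p = 0.961), an interval that leaves out a 2-fold change in either direction. Against the proliferative zone the hypertrophic zone was higher by 2.91 ± 0.23 (adjusted p = 3.35e-10). The resting zone was lower than epiphyseal cartilage (change -1.80, interval -2.31 to -1.30, adjusted p = 6.15e-05) and the transition zone higher by 1.78 ± 0.24 (adjusted p = 5.71e-06). With epiphyseal arrays 1 and 2 left out these were -2.23 and 1.36, both still called. From the resting to the proliferative zone Phospho1 was higher by 0.70 ± 0.23 at an adjusted p of 0.0396, which is under 2-fold, and in 3 of 5 animals. Over the alternative settings this change ran from 0.43 to 0.91 and its adjusted p from 0.0129 to 0.301.

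Alpl and Phospho1 thus shared the proliferative to transition rise and parted at the hypertrophic step. Within animals, the hypertrophic minus transition difference of Alpl ran from 0.93 to 1.91 and that of Phospho1 from -0.52 to 0.27. These ranges did not overlap, and the difference between the genes was not tested. Over the 24 arrays the log2 signals of the pair correlated at r = 0.94, and Phospho1 was the 5th most similar of 10557 genes to Alpl. After the zone means were removed, r was 0.58. These correlations are descriptions, since the arrays share zones and animals.

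Slc20a1, the phosphate importer Pit-1, had no called change until the last step, where it rose. Its signals were 2242.2, 2264.0, 2028.3, 1787.9 and 1834.2 in the resting zone, 1990.2, 2975.4, 2892.3, 2488.3 and 2118.3 in the proliferative zone and 3115.0, 3116.7, 2296.7, 3019.9 and 2401.4 in transition arrays. Hypertrophic arrays gave 6893.4, 5754.6, 5016.8, 5431.1 and 7676.7, every one above every array of the other zones. Epiphyseal cartilage gave 3358.4, 3396.5, 2623.7 and 1524.4, which overlapped with the transition, proliferative and resting zones.

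The hypertrophic step of Slc20a1 was 1.13 ± 0.17 (log2) against the transition zone (adjusted p = 3.04e-05 in limma) and 1.30 ± 0.17 against the proliferative zone, within 1 label wording (adjusted p = 1.5e-06). Against the resting zone it was 1.58 ± 0.17 (adjusted p = 5.18e-08). Each held in 5 of 5 animals. The step from the transition zone sat close to the 2-fold limit. It was 0.997 without animal 5 (adjusted p = 0.00017) and 0.86 after scaling to one median (adjusted p = 0.00215), and in both it missed the call. Relative to the median of all probe sets it was 1.12 as deposited and 1.10 after that scaling. Between the other neighbouring zones it differed by -0.34, 0.28 and 0.17, none called. Without the hypertrophic array of animal 4 the step was 1.17.

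Slc20a2, the importer Pit-2, had no called change, and the means of its tested probe set were highest in the proliferative and resting zones. Its signals were 535.5, 546.7, 684.9, 421.4 and 301.9 in the resting zone and 386.2, 550.4, 522.8, 729.9 and 435.2 in the proliferative zone. They were 362.1, 355.6, 316.1, 402.5 and 273.0 in transition arrays, 408.1, 284.3, 350.4, 295.0 and 292.2 in the hypertrophic zone, and 302.1, 318.6, 281.0 and 403.3 in epiphyseal cartilage. All neighbours in this order of levels overlapped. The hypertrophic zone was lower than the proliferative zone (log2 change -0.64, 95% interval -1.07 to -0.21, adjusted p = 0.0177 in limma) and than the resting zone (-0.55, interval -0.98 to -0.12, adjusted p = 0.0365). Both are under 2-fold, so neither was called. Without the hypertrophic array of animal 4 the latter was -0.50 (adjusted p = 0.0808). The second probe set of Slc20a2 lay below the array median in all 24 arrays, between 9.5 and 153.5, and was not tested. Its highest mean was in the hypertrophic zone (68.74). It was higher there than in the resting zone in 5 of 5 animals, by 0.04 to 1.45 (log2), with overlapping ranges. In the tested probe set the hypertrophic zone was lower in 5 of 5.

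Ankh, the gene needed for pyrophosphate release, had in its tested probe set the highest mean in epiphyseal cartilage and no called change between the 4 growth plate zones. Its signals were 702.9, 910.2, 395.2 and 603.6 in epiphyseal cartilage and 331.4, 247.9, 219.3, 283.7 and 399.9 in the resting zone. They were 255.0, 359.5, 396.5, 438.0 and 355.0 in the proliferative zone, 285.3, 272.8, 213.5, 353.9 and 306.2 in transition arrays and 383.8, 381.8, 331.2, 1400.5 and 251.1 in the hypertrophic zone. The value of 1400.5 belongs to animal 4, the array rich in osteoclast, macrophage and osteoblast signal.

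The call for Ankh was a lower level in the transition zone than in epiphyseal cartilage (log2 change -1.04, 95% interval -1.72 to -0.36, adjusted p = 0.0192 in limma), in 4 of 4 animals with both. That call was lost in 6 of 19 alternative settings. With epiphyseal arrays 1 and 2 left out the change was -0.51 (adjusted p = 0.399), without animal 1 -0.96 (adjusted p = 0.0863) and without animal 2 -0.82 (adjusted p = 0.146). In the same comparison 6 of 7 tested osteoclast and macrophage markers (10 listed) were called lower, where 9.46% of all probe sets were. The part of those cells in the result was not tested. The resting zone differed from epiphyseal cartilage by -1.0 (adjusted p = 0.119), and by -1.03 without the hypertrophic array of animal 4 (adjusted p = 0.0176) and -1.24 without animal 4 (adjusted p = 0.0148), where it was called. It was as small as -0.48 (adjusted p = 0.772) with epiphyseal arrays 1 and 2 left out, and -0.74 without animal 2. The hypertrophic zone differed from the transition zone by 0.63 (adjusted p = 0.148), and by 0.22 without the array of animal 4 (adjusted p = 0.561). The second, dim probe set of Ankh lay above the array median in 3 of 24 arrays, between 12.8 and 300.9. It ranked the zones otherwise, with its highest mean in the hypertrophic zone (179.7, against 141.1 in epiphyseal cartilage). In 5 of 5 animals it was higher in the hypertrophic than in the transition zone, with overlapping ranges, and it was not tested.

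**Figure D2:**
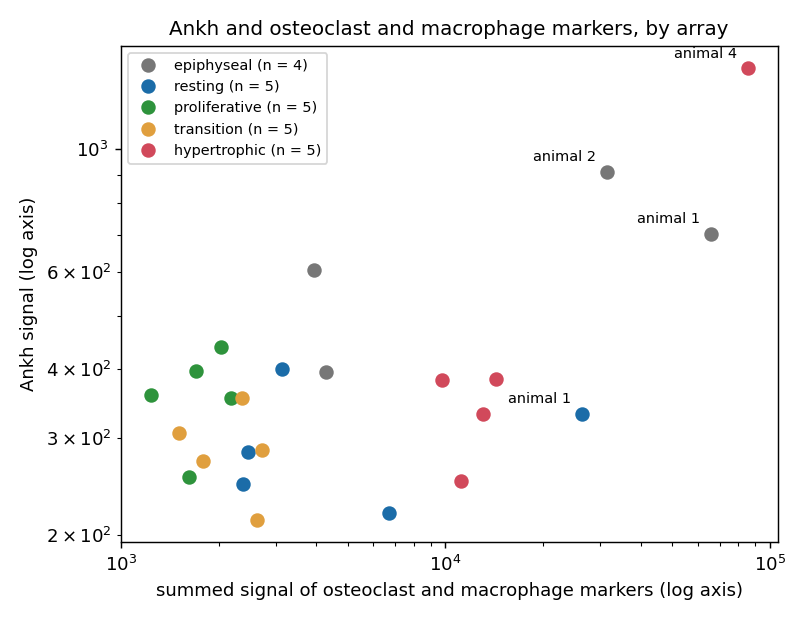
Ankh signal (y axis) against the summed signal of the osteoclast and macrophage markers (x axis), both MAS5 signals on log axes, with 1 point per array coloured by zone and the 4 arrays with a sum above 20000 named by animal. The 3 arrays with the highest Ankh, at 1400.5, 910.2 and 702.9, are also the 3 with the highest marker sums, while the resting array of animal 1 has a high sum with an Ankh signal of 331.4.

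Enpp1, the enzyme that makes pyrophosphate, was highest in the resting zone. Its resting signals were 2730.5, 2254.2, 2487.7, 2963.6 and 2863.3. The proliferative ones were 1823.7, 1681.5, 1340.1, 2248.2 and 2091.7, all lower, the highest of them just under the lowest resting signal. Transition arrays gave 1733.7, 1337.0, 2157.9, 1878.3 and 1444.5, hypertrophic arrays 1484.1, 1530.1, 1464.1, 2430.7 and 2079.6, and epiphyseal arrays 2153.0, 1542.2, 1591.2 and 1706.7. These 3 overlapped with each other and with the proliferative zone. The hypertrophic signal of animal 4, 2430.7, also lay above the lowest resting signal.

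The proliferative zone was lower than the resting zone in Enpp1 (log2 change -0.55, 95% interval -0.86 to -0.23, adjusted p = 0.0183 in limma) in 5 of 5 animals. The hypertrophic zone was lower than the resting zone (-0.59, interval -0.90 to -0.27, adjusted p = 0.00349), also in 5 of 5, though the ranges overlapped. The resting zone stood 0.63 ± 0.17 above epiphyseal cartilage (adjusted p = 0.0374). All were under 2-fold and none was called. Over the alternative settings the adjusted p reached 0.0811 for proliferative against resting and 0.205 for resting against epiphyseal. For hypertrophic against resting it reached 0.0251. From the proliferative to the transition zone the difference was -0.10 (-0.42 to 0.22) and from the transition to the hypertrophic zone 0.06 (-0.26 to 0.38). Both intervals leave out a 2-fold change, in the steps where Alpl rose.

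Read by comparison, the calls fell on few of the 6 genes. Against epiphyseal cartilage the resting zone had 2 called lower, Alpl and Phospho1, where 1.51% of all probe sets were called. Between the resting and proliferative zones 0 of 6 were called by limma, where 6.09% of all probe sets were. In that comparison Phospho1 and Enpp1, and none of the other 4, had an unadjusted p below 0.05. Both passed the adjusted p at under 2-fold, though not in every alternative setting, and no alternative setting called any of the 6. From the proliferative to the transition zone 2 of 6 were called, both higher (background 8.43%), and from the transition to the hypertrophic zone 2 of 6, Alpl and Slc20a1, both higher (background 9.27%). The hypertrophic zone had Alpl, Phospho1 and Slc20a1 higher against both the proliferative (background 18.7%) and the resting zone (background 21.1%). The transition zone had Alpl and Phospho1 higher and Ankh lower than epiphyseal cartilage (background 13.8%).

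The median change of the 6 genes was -0.67 for the resting zone against epiphyseal cartilage, then 0.28, 0.04 and 0.34 for the following neighbouring steps. Over all tested probe sets the medians were 0.03, -0.02, -0.07 and 0.02. Hypertrophic against resting, the 6 genes had a median of 1.08 and all probe sets one of -0.04. Leaving out the hypertrophic array of animal 4 kept Alpl, Phospho1 and Slc20a1 called against the proliferative and resting zones.

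**Figure D3:**
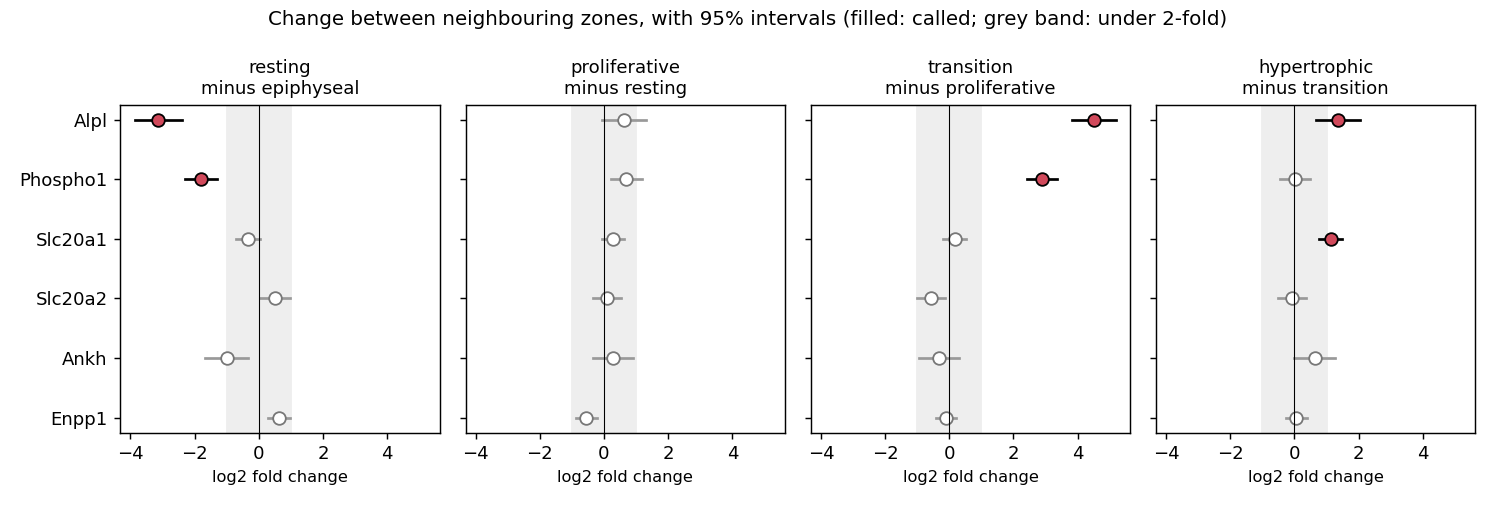
Fitted log2 fold change of each gene (points) between neighbouring zones, with 95% intervals (lines), filled where called, and a grey band for changes under 2-fold. Alpl and Phospho1 leave the band at the step from epiphyseal cartilage and the step into the transition zone, Alpl and Slc20a1 at the last, and Slc20a2 and Enpp1 have no called step.

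**Figure D4:**
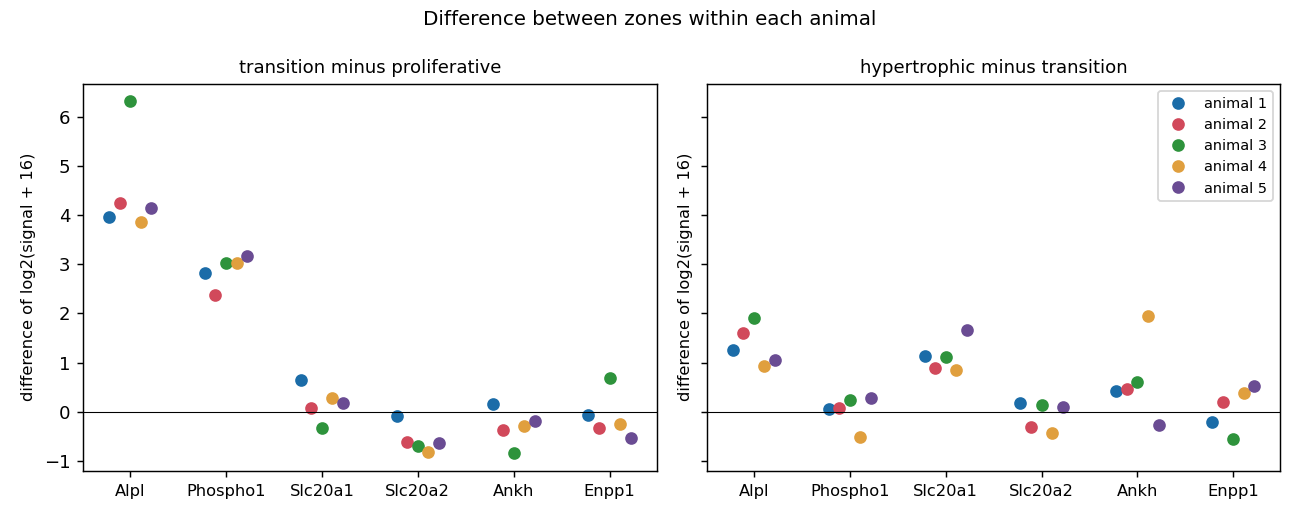
Difference of log2(signal + 16) between zones within each animal (coloured points) for the transition minus the proliferative zone and for the hypertrophic minus the transition zone. Alpl and Phospho1 are above 0 in 5 of 5 animals in the first panel, and Alpl and Slc20a1 in the second, where the point of animal 4 for Ankh stands at 1.94.

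The genes whose patterns most resembled each member were taken by correlation over the 24 arrays, which share zones and animals. For Alpl they were Cgref1 (r = 0.970), the parathyroid hormone receptor Pth1r (0.964), Bmp6 (0.958), Tcap (0.946) and Phospho1 (0.944). For Phospho1 they were Gas2l1 (0.954), Pth1r (0.950), Alpl and Bmp6 (0.944 each) and Cdkn1a (0.932), which encodes a cell cycle inhibitor. Slc20a1 was most like Mapkapk5 (0.921), Atg16l1 (0.897), Tacc2 (0.892), Col13a1 (0.888) and Lrrfip2 (0.887). Slc20a2 was most like Nsd2 (0.791), Bbs2 (0.770), Zfp955a (0.753), Kif26b (0.723) and Prps2 (0.711). Enpp1 was most like H2ac25 (0.748), Oxa1l and Glis2 (0.734 each), Ddr1 (0.729) and Atn1 (0.717).

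The neighbours of Ankh rested on few arrays. Over 24 arrays they were Timp1 (0.847), Fyn (0.809), Csf1r (0.765), F11r (0.763) and Gpnmb (0.762), and Csf1r, the receptor for macrophage colony-stimulating factor, is on the osteoclast and macrophage marker list. With that hypertrophic array of animal 4 and epiphyseal arrays 1 and 2 left out, the values over 21 arrays were 0.378, 0.424, 0.330, 0.620 and 0.304. For Alpl and Cgref1 the same removal gave 0.971, and for Slc20a1 and Mapkapk5 0.935.

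The wider pathway was read from a list of 39 other genes of phosphate and mineral handling, of which 26 were tested. Most calls fell in pyrophosphate and nucleotide handling at the transition step, and in phosphate regulators and mineral-binding proteins at the hypertrophic step. Against the proliferative zone the transition zone had 6 of 26 called higher and none lower, where 8.43% of all probe sets were called in either direction. These were Enpp2, Nt5e, Ppa1, Panx3, Smpd3 and Ibsp, and the list's median change was 0.25. Against the transition zone the hypertrophic zone had 8 called higher and 2 lower, with a median of 0.06 (background 9.27%). Without the hypertrophic array of animal 4 these were 7 and 3, with Enpp3 lost and Mgp gained. Against the resting zone it had 11 higher and 2 lower (median 0.66, background 21.1%), and against the proliferative zone 8 higher and 2 lower (median 0.48, background 18.7%).

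In pyrophosphate and nucleotide handling, Panx3, a channel that releases ATP from chondrocytes, rose already between the resting and proliferative zones. Its mean signal was 305.1 in the resting, 7644 in the proliferative and 30630 in the transition zone, with rises of 4.54 ± 0.28 (log2, adjusted p = 9.41e-11 in limma) and 2.04 ± 0.28 (adjusted p = 9.6e-06). Its signals did not overlap between these zones. Ppa1, a cytosolic pyrophosphatase, rose by 2.55 ± 0.18 from the resting to the proliferative zone (adjusted p = 5.94e-10), then by 1.06 ± 0.18 into the transition zone, and fell by 1.22 into the hypertrophic zone. Without animal 5 the last pair of steps were 0.92 and -0.95, both under 2-fold and so not called. Without the transition array of animal 5 the former was 0.88, and with array weights 0.94, again not called.

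Enpp2 (autotaxin), a relative of Enpp1 that makes lysophosphatidic acid, was called in the same 6 comparisons as Alpl and in the same directions. It was lower in the resting zone than in epiphyseal cartilage, rose by 2.78 ± 0.18 into the transition zone (adjusted p = 2.08e-10 in limma) and by 1.91 ± 0.18 into the hypertrophic zone (adjusted p = 6.74e-08). Nt5e, the ecto-5'-nucleotidase that frees phosphate from AMP, rose by 1.05 ± 0.20 into the transition zone. It was not called without animal 5 (0.97), without the transition array of animal 5 (0.95), with a pseudocount of 64 (0.997) or with array weights (0.994). Smpd3, a sphingomyelinase that yields phosphocholine, the substrate of Phospho1, rose by 1.20 ± 0.20 (adjusted p = 0.000132). Among choline kinases, Chka and Chkb were not called in any comparison. Neither were Xpr1, the phosphate exporter, and Slc25a3, the mitochondrial phosphate carrier. Lhpp, a phosphatase, changed by -1.01 from the transition to the hypertrophic zone. It was not called without animal 3 (-0.90), without animal 5 (-0.96) or with a pseudocount of 64 (-0.94).

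Among phosphate regulators, 5 of 9 listed genes were tested. Of these, 4 rose from the transition to the hypertrophic zone: Phex, Dmp1, Mepe and the FGF receptor Fgfr1. Of all probe sets 9.27% were called there, and 73.2% of those calls were upward. The brightness filter favours genes that are high in some zone. Phex and Mepe had means of 933.3 and 575.6 in the hypertrophic zone against 74.88 and 84.64 in the transition zone. With the filter at the 75th percentile neither was tested, so the count says little about the regulators as a set. Fgfr1 rose by 3.03 ± 0.21 (adjusted p = 5.35e-10 in limma) after it fell by 1.77 from the resting to the proliferative zone. Its signals did not overlap at either step. It was also called higher in the resting zone than in epiphyseal cartilage, by 1.02, a call kept in 12 of 19 alternative settings. This call was lost without animal 3 (0.92), without animal 5 (0.89) and without the block for animals (0.93). It was lost as well with a random block (0.97), array weights (0.89), a pseudocount of 64 (0.993) and a fit on the compared zones alone (0.92). Dmp1 and Phex, genes best known from osteocytes, were highest by far in 1 array. Dmp1 gave 11406.1 in the hypertrophic array of animal 4 against 367.0 to 1076.3 in the other 4, and Phex 3706.9 against 110.3 to 408.6. Without that array Dmp1 fell from 2.79 to 1.96 and Phex from 2.15 to 1.26, both still called against the transition zone. Mepe went from 2.64 to 2.39. Against the resting zone Phex was then 0.75 (adjusted p = 0.191).

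Of the 3 tested mineral-binding proteins (5 were listed), 2 rose in the hypertrophic zone and Mgp fell. Ibsp, bone sialoprotein, rose by 2.05 ± 0.39 into the transition zone (adjusted p = 0.000437 in limma) and by 3.02 ± 0.39 into the hypertrophic zone (adjusted p = 4.81e-06), in 5 of 5 animals each. Ibsp is also on the osteoblast marker list used above. From the resting to the proliferative zone it was called lower (-1.39). That change was -1.37 without animal 3 (adjusted p = 0.0591), -1.28 without animal 4 (adjusted p = 0.0624) and -1.39 without the block for animals (adjusted p = 0.0922), and so not called. Spp1, osteopontin, gave 21853.3 in the hypertrophic array of animal 4 against 1092.0 to 1625.2 in the other 4. Its rise from the transition zone was 2.55 ± 0.53, and 1.68 without that array. Against the resting zone Spp1 and Anxa2 were no longer called without it (0.88 and 0.89), and the count went from 11 to 8. Mgp, matrix Gla protein, an inhibitor of calcification, fell by 1.78 from the proliferative to the hypertrophic zone (adjusted p = 1.72e-08), with no overlap between the zones.

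Against epiphyseal cartilage, the transition zone had 5 of the 26 genes higher and 2 lower (median 0.11), where 13.8% of all probe sets were called. Panx3 was higher by 6.81 ± 0.30 and Ppa1 by 3.53 ± 0.20, and Enpp3 was lower (-1.34, or -0.85 at an adjusted p of 0.125 with epiphyseal arrays 1 and 2 left out). The resting zone had 1 higher and 1 lower (median -0.18, background 1.51%), and the proliferative zone had 2 higher and 2 lower than the resting zone (median 0.20, background 6.09%).

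**Figure D5:**
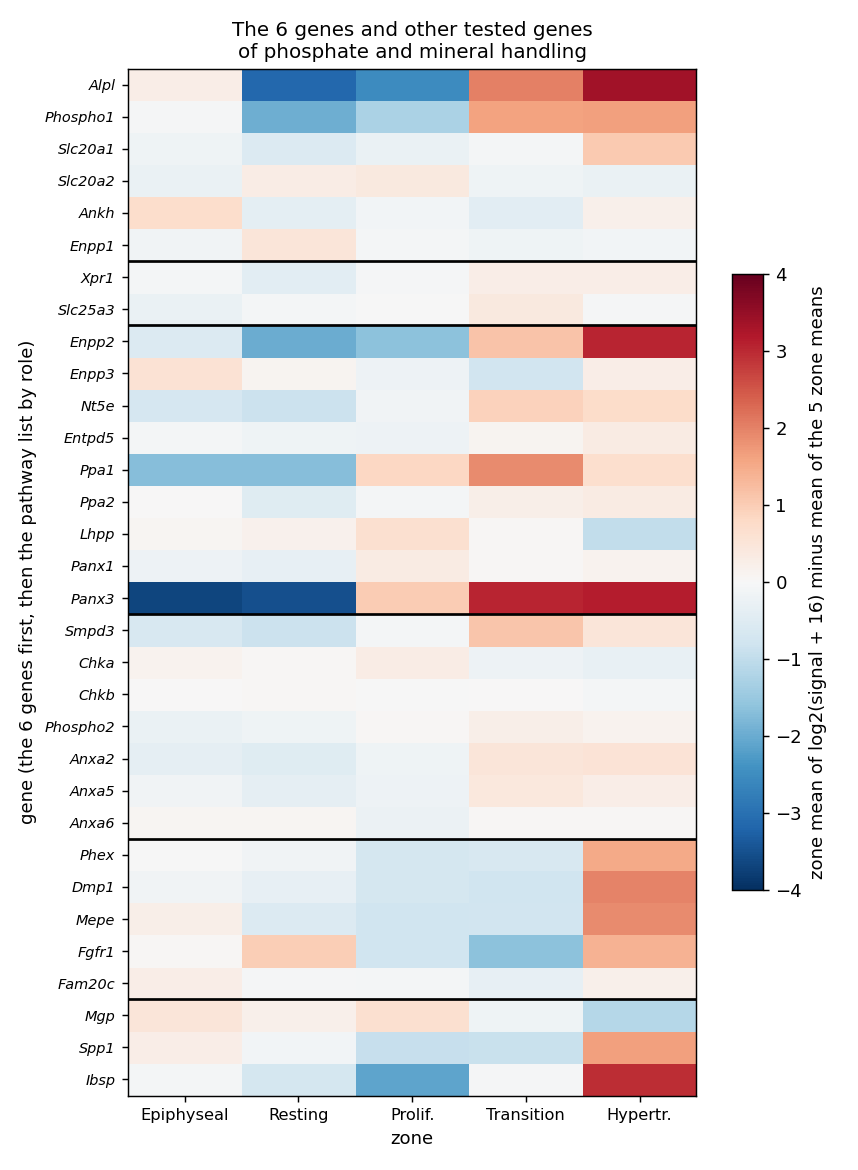
Zone means of log2(signal + 16) relative to each gene's mean of the 5 zone means (colour scale from -4 to 4), for the 6 genes at the top and then the 26 tested genes of the pathway list by role, with zones on the x axis. Alpl, Phospho1, Enpp2 and Panx3 are red in the transition zone, and Phex, Dmp1, Mepe, Fgfr1, Spp1 and Ibsp are reddest in the hypertrophic zone.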

How the data were processed

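Per the labels' protocols, 50 to 100 ng of total RNA per dissected zone was amplified, labelled with biotin and hybridised to Affymetrix arrays. Each deposited value is an intensity, the MAS5 signal of 1 probe set, per the submitters' processing notes. The sources used here give no MAS5 version. Trimmed of the lowest and highest 2%, every array had a mean between 499.5 and 500.0. The arrays thus share one trimmed mean and were not normalized again. Their medians still spanned 135.3 to 244.6, and the effect of scaling to one median is given above.

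From the deposited signals, log2(signal + 16) was taken. Tests covered the 19213 probe sets (61.8%) that exceeded the array median on 4 or more arrays, without 57 control probe sets. Genes were named by the platform annotation, with symbols brought to assembly GRCr8 through gene identifiers. A single symbol was found for 13956 tested probe sets, which alone were named, while 323 carried several symbols and 4934 no symbol. A gene's main probe set was its tested one of highest mean log2 signal.

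The comparisons used limma 3.58.1 under R 4.3.3 (mean-variance trend, 15 residual degrees of freedom) on all 24 arrays. The labels give each array an animal number, and same-numbered arrays of different zones deviated together (median r 0.176 over 46 pairs, against -0.0464 over 184 pairs of different animals; across the 2 label wordings 0.183 over 27 pairs, against -0.049 over 108), so the animal was a fixed block. At most 50 values were identical between arrays of a zone, so none was a copy. The fit was tested on simulated data. Figures were drawn with matplotlib 3.10.9.

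The 6 genes, the pathway and marker lists and the alternatives were chosen with earlier results of these data known. The rule for other genes named each member's 5 most similar genes and, of the pathway list, those called in 2 or more of the 4 neighbouring comparisons or among the 3 largest changes of a comparison. Nt5e, Smpd3, Spp1, Enpp3, Phex, Mepe, Lhpp, Mgp, Anxa2, Chka, Chkb, Xpr1 and Slc25a3, where outside that rule, and the arrays that stand apart were picked after their values were seen. Some listed genes were not analysed here. Alternatives were pseudocounts of 1 and 64, scaling to one median, quantile normalization, a filter at the 75th percentile or none, a fit on the compared zones alone, a random block or none, array weights, no trend, and fits that leave out animals or arrays.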

Additional observations from a re-analysis of the deposited data

Results flagged for a closer look

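Dixon's test for an outlying array was run on 40 groups, the 8 probe sets in 5 zones, on log2 values, in which chance marks about 1 group in 20. It marked 3 arrays. Alpl in the proliferative array of animal 3 was the lowest of its zone at 9.2, next to 134.0 to 205.2 in the other 4. The resting array of the same animal, at 12.4, was also the lowest of its zone. Ankh in the hypertrophic array of animal 4 was the highest at 1400.5, next to 251.1 to 383.8. That array also had the highest osteoclast and macrophage sum and the highest osteoblast sum of its zone, and the part of those cells was not tested. The dim second probe set of Ankh was lowest in the epiphyseal array of animal 4, at 28.6, and up to 184.8 in the others.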

How the results depend on the processing

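Of the 42 changes of the 6 genes, 15 were called, and 19 alternatives gave 791 values, of which 749 kept direction and call, 8 lost a call and 3 gained one. In 31 values an uncalled change near 0 turned its sign. The calls lost were those of Ankh between the transition zone and epiphyseal cartilage (also -0.94 with a pseudocount of 64, -0.84 after quantile normalization and -0.75 after scaling to one median) and of Slc20a1 at the hypertrophic step, given above. The number of the 6 called at that step was 1 in place of 2 after scaling to one median, and 1 to 2 when 1 animal was left out. Without the replicate block the count called was 2, 0, 2, 2, 3, 3 and 3 over the 7 comparisons, as with it, and the block changed no other call among the 6. With array weights Ankh was called lower in the resting zone than in epiphyseal cartilage (-1.07).

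Scaling to one median turned Phospho1 from the transition to the hypertrophic zone to -0.25 and Enpp1 to -0.21. It turned Enpp1 to 0.061 from the proliferative to the transition zone and to 0.29 from epiphyseal cartilage to the transition zone. That scaling moved all probe sets: relative to their median, Phospho1 at the hypertrophic step was 0.01 as deposited and -0.01 after scaling, and Enpp1 was 0.05 and 0.03 there and -0.04 and -0.03 at the transition step, and 0.06 and 0.07 against epiphyseal cartilage. Array weights gave Enpp1 -0.024 and 0.022 in the hypertrophic against transition and transition against epiphyseal comparisons. Quantile normalization gave Slc20a1 -0.027 in the latter. Without the transition array of animal 5, hypertrophic against transition was -0.054 for Phospho1 and -0.029 for Enpp1, and transition against epiphyseal was 0.083 for Enpp1. Without the hypertrophic array of animal 4, Ankh was -0.094 against the proliferative zone and Enpp1 -0.022 against the transition zone. Without the epiphyseal arrays of animals 1 and 2, transition against epiphyseal was 0.21 for Enpp1 and -0.10 for Slc20a2.

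Leaving out 1 animal in turn, hypertrophic against transition ranged from -0.04 to 0.16 for Phospho1, -0.054 to 0.215 for Enpp1 and -0.125 to 0.023 for Slc20a2. Hypertrophic against proliferative ranged from -0.02 to 0.51 for Ankh and from -0.081 to 0.024 for Enpp1. Transition against epiphyseal ranged from -0.129 to 0.092 for Enpp1, -0.085 to 0.19 for Slc20a1 and -0.11 to 0.22 for Slc20a2. Transition against proliferative ranged from -0.297 to 0.006 for Enpp1, and proliferative against resting from -0.08 to 0.23 for Slc20a2. The causes were not tested. Signals below the array median, as for Alpl in resting cartilage, limit how large a fold can be read.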
